A study of Mus musculus with 203 samples.

Results

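The matrix proteases and inhibitors described here are 10 genes, chosen by name from the 43346 identifiers of the gene count table. The choice was made with earlier results of these data known. The genes are the secreted metalloproteinases Mmp2, Mmp3, Mmp8, Mmp9 and Mmp13, the membrane-anchored proteases Mmp14 and Adam8, and the tissue inhibitors Timp1, Timp2 and Timp3. All 10 were matched to 1 identifier each and passed the filter on low counts in every fit. Airway and parenchyma tissue, separated by blunt dissection, came from female BALB/c mice labelled 18 to 20 weeks old at both time points. At 3 weeks the mice had received house dust mite extract (HDM), an allergen given intranasally on 5 days per week, or phosphate buffered saline (PBS), giving 11 libraries of PBS airway, 12 of PBS parenchyma and 10 of each tissue under HDM. At 11 weeks there were 16 groups of 10 libraries, labelled PBS or HDM with AIR (normal air) or CS (cigarette smoke), with or without DEX (dexamethasone, a glucocorticoid), in each tissue. HDM was continued 3 times per week from week 4 to week 11, smoke was given on 5 days per week for 8 weeks, and dexamethasone during week 11. The titles carry library codes, and apart from 1 library the codes pair an airway with a parenchyma library of the same group (1 with 2, 3 with 4 and so on). The labels do not say whether such a pair is one mouse, so the libraries were fitted as independent samples, p-values measure the spread between them, and comparisons of both tissues are given with the code pair as a block where that changes the call.

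Matrix metalloproteinases are zinc enzymes that cut collagens, gelatins, proteoglycans and many signalling proteins, and are made as inactive precursors. The tissue inhibitors of metalloproteinases bind the active enzymes and hold them in check, and in the lung the balance of both groups has long been studied in airway remodelling and emphysema. Mmp8 (neutrophil collagenase) and Mmp13 (collagenase-3) cleave fibrillar collagen, Mmp2 and Mmp9 are the gelatinases, and Mmp3 (stromelysin-1) cleaves proteoglycans and activates other precursors. Mmp14 is a membrane-type enzyme that, together with Timp2, activates the Mmp2 precursor, and Adam8 is a disintegrin and metalloproteinase of leukocytes that sheds cell surface proteins. Timp3 is unusual among the inhibitors in that it stays bound to the matrix.

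The genes lie on 8 chromosomes of mm10, and Mmp13 (chr9:7272514-7283331), Mmp3 (chr9:7445822-7455975) and Mmp8 (chr9:7558456-7568485), all on the plus strand, sit near each other on chromosome 9. The others are Mmp2 (chr8:92827291-92853420), Mmp9 (chr2:164940780-164955850), Mmp14 (chr14:54431612-54445364), Timp1 (chrX:20870166-20874735) and Timp3 (chr10:86300372-86349506) on the plus strand, and Adam8 (chr7:139978932-139992562) and Timp2 (chr11:118301069-118355740) on the minus strand. Each span covers the whole gene with exons and introns. Timp3 shares exon bases with Syn3 on the opposite strand, and Adam8 with the transcript Gm16201, so reads there cannot be assigned with certainty where strand was not used. Timp1 lies inside Syn1 on the opposite strand without shared exon bases. The promoters of the 3 neighbours on chromosome 9 are printed because among the members in the promoter table they alone held a match to the searched motifs. They are RefSeq sequences of GRCm38.p6, plus strand, from 250 bases before to 50 bases after the start (Mmp3 at chr9:7445572-7445871, Mmp8 at chr9:7558179-7558478, Mmp13 at chr9:7272264-7272563). Capitals mark matches to the AP-1 motif TGANTCA, the PU.1/ETS core GAGGAA and the TATA box TATAAA, each searched on both strands.
Mmp3: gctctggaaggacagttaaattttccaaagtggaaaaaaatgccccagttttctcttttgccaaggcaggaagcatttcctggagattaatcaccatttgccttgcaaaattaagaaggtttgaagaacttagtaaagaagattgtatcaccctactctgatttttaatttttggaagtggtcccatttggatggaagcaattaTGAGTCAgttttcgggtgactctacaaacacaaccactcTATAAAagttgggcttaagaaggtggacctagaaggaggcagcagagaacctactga
Mmp8: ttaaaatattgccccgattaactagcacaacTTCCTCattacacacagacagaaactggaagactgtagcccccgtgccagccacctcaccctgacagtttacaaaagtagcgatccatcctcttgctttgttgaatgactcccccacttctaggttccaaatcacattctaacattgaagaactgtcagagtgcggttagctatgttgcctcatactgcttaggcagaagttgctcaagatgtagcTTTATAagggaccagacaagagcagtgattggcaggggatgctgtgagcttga
Mmp13: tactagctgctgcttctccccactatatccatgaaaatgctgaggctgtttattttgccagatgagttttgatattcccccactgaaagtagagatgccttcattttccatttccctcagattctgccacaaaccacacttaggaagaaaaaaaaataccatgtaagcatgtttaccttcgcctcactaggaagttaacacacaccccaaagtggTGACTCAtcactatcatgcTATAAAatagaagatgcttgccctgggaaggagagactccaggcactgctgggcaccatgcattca

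The AP-1 motif began at -46 from the start in Mmp3 and at -35 in Mmp13, and was not found in the Mmp8 window. The PU.1/ETS core was found in Mmp8, on the minus strand at -219. TATAAA was found in all 3, on the plus strand in Mmp3 and Mmp13 but on the minus strand, at -3, in Mmp8. The bases after the start of the Mmp8 window did not match the beginning of a GENCODE transcript, unlike those of Mmp3 and Mmp13. Of 32851 promoters of this length, 7.81% held TGANTCA, 28.3% held GAGGAA, 13.6% held TATAAA and 19.0% held TGTTCT, a motif of the glucocorticoid receptor. TGTTCT was found in none of the 8 member promoters in the table, and none of the 4 motifs was found in those of Mmp14, Adam8, Timp1, Timp2 and Timp3. These are matches of letters, described without any inference on binding.

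Total counts ranged from 13003087 to 40240680 per library. The smallest, replicate 2 of the HDM AIR DEX parenchyma group, had 33.7% of its counts in a single transcript, Gm42418, against at most 3.77% in any other library. Its member values lay within the range of the 9 others except for Mmp3, at 6.56 CPM (counts scaled to a common library size with TMM factors) against 9.6 to 44. Airway libraries stood above parenchyma libraries in PBS mice at 3 weeks for 7 of 8 airway epithelium, 7 of 8 smooth muscle and 5 of 6 tested cartilage markers. They were also higher for 6 of 6 cardiac muscle markers, with a median log2FC of 5.50, and they still held alveolar type II markers, at a summed 4866 to 21481 CPM against 17737 to 31883 in parenchyma. In bulk tissue, fewer cells of a type and less RNA per cell cannot be told apart.

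In PBS mice the inhibitors Timp3 and Timp2 were by far the most abundant members. Per kilobase of exon, Timp3 had a mean of 100.8 CPM in airway and 95.6 in parenchyma at 3 weeks, and Timp2 had 84.6 and 70.8. The order below them differed by tissue, with Mmp3 at 31.2 and Mmp2 at 30 in airway but 8.24 and 10.2 in parenchyma. Mmp13 and Mmp8 were lowest in both tissues, at 1.22 and 1.35 CPM per kilobase in airway. In each member, 18 or all 19 of the 19 neighbouring pairs in the order of the 20 group means had overlapping libraries, so the order is graded rather than stepped.

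Among PBS mice at 3 weeks, 4 of 10 members were called higher in airway and 0 lower, while 10% of the 17377 genes tested were called higher and 1.91% lower. A call needed an adjusted p below 0.05 from limma-voom together with a change of 1 or more on the log2 scale. No overlap between the groups was found for 9.21% of genes. Adam8 read 29.6, 60.4 and 89.7 CPM (lowest, median, highest) in airway and 7.05, 12.8 and 25.6 in parenchyma, with no overlap (log2FC 2.07 ± 0.18 (SE), adjusted p = 1.7e-11). Mmp3, which was also without overlap, read 33.4, 55.5 and 83.3 against 9.67, 15.2 and 17.7 CPM (log2FC 1.82, adjusted p = 5.6e-09). Mmp2 and Timp1 were the other 2, with log2FC of 1.41 and 1.34. The collagenase Mmp8 was the only member past the adjusted p in the opposite direction (log2FC -0.84, adjusted p = 0.026), and that call was lost without PBS airway replicate 5 (adjusted p = 0.077), without replicate 8 (adjusted p = 0.06) and with a stricter filter. At 11 weeks in PBS AIR mice, Adam8 and Mmp3 were again called higher in airway (log2FC 2.40 and 1.07) and Mmp8 was called lower (log2FC -1.23, adjusted p = 0.01), against 13.4% and 2.71% of genes. Mmp9, Mmp14 and Timp1, which were past the adjusted p at 3 weeks (log2FC 0.61, 0.71 and 1.34), had log2FC of -0.03, 0.04 and 0.86 at 11 weeks and were not past it. With code pairs as a block, Timp1 passed (0.87, adjusted p = 0.044), as did Timp3 (-0.25, adjusted p = 0.016). Without PBS airway replicate 2 the Mmp9 difference at 3 weeks was 0.54 and missed the threshold. At 3 weeks fibroblast markers were called higher in airway for 7 of 10. Of 9 tested neutrophil markers, 5 were called lower in airway and 1 higher. Their summed level went the other way, with a median of 875 CPM in PBS airway (576 to 1574). In PBS parenchyma that median was 433 CPM (341 to 609). The part of these cells was not tested.

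HDM for 3 weeks raised the same 6 members in both tissues by the call rule, the proteases Mmp8, Mmp9, Mmp13, Mmp14 and Adam8 and the inhibitor Timp1. In airway 24% of genes were called, 12.1% higher and 11.8% lower, and in parenchyma 14.5% and 15.1%. Timp3 was called lower in airway, Timp2 fell by less in both tissues, and Mmp2 and Mmp3 moved little. The median log2FC of the 10 members was 1.48 in airway and 2.27 in parenchyma, beside -0.07 and -0.13 over all genes. Because the members were chosen with earlier results of these data known, this contrast with all genes is a description.

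Timp1 had the largest rise of the 10. It read 6.96, 10.3 and 47.1 CPM in PBS airway, against a median of 203.9 and a highest value of 450 CPM in HDM airway, a log2FC of 3.74 ± 0.26 (13.4-fold, adjusted p = 3.1e-16). In parenchyma it went from 3.65, 5.7 and 8.17 to 223, 360 and 450 CPM, a log2FC of 5.79 ± 0.34 (55.2-fold, adjusted p = 8.1e-19). Every HDM library lay above every PBS library of its tissue. The other 2 inhibitors went the opposite way. Timp3 dropped from 675, 810 and 963 CPM to 205, 342 and 413 in airway, with no overlap (log2FC -1.36 ± 0.11, adjusted p = 6.4e-15). In parenchyma it read 552, 802 and 889 CPM under PBS and 340, 421 and 648 under HDM, with overlapping groups (log2FC -0.90 ± 0.10, adjusted p = 1.4e-10). Timp2 fell by 0.58 on the log2 scale in airway (adjusted p = 4.3e-09), where the groups did not overlap, and by 0.37 in parenchyma (adjusted p = 9.4e-06), where they did. By kilobase of exon, Timp1 thereby went from a median of 6.66% of the summed 3 inhibitors to 70.7% in airway, and from 3.63% to 77.2% in parenchyma, and it became the most abundant of the 10 members in both.

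Among the proteases, both membrane-bound members separated fully from PBS in both tissues. Mmp14 rose from 24.7, 32.9 and 70.2 CPM to 93.4, 140.96 and 208 in airway (log2FC 1.80 ± 0.14, adjusted p = 1.9e-14) and from 16.2, 23.1 and 28.5 to 146.6, 179.6 and 205 in parenchyma (log2FC 2.79 ± 0.15, adjusted p = 7.6e-20). Adam8 rose from 29.6, 60.4 and 89.7 CPM to 125.5, 199.3 and 314 in airway (log2FC 1.81 ± 0.16, adjusted p = 3.4e-13). In parenchyma Adam8 went from 7.05, 12.8 and 25.6 to 169.8, 220 and 289 CPM (15.7-fold, log2FC 3.97 ± 0.19, adjusted p = 1.9e-21). Neither gene had an HDM library within the PBS range in either tissue, and their HDM ranges in airway and parenchyma overlapped.

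The collagenases Mmp8 and Mmp13 were low and variable. Mmp8 read 0.707, 3.54 and 4.82 CPM in PBS airway and 7.5, 13.2 and 22.5 in HDM airway (log2FC 2.20 ± 0.29, adjusted p = 7.0e-09), and 3.74, 5.21 and 6.32 against 15, 22.4 and 65.7 in parenchyma (log2FC 2.15 ± 0.25, adjusted p = 3.3e-10). Mmp13 rose from 1.25, 1.77 and 2.34 to 8.38, 13.1 and 38 CPM in parenchyma, with no overlap (log2FC 2.89 ± 0.35, adjusted p = 1.1e-09). In airway the Mmp13 groups overlapped, at 1.33, 2.05 and 6.08 against 5.04, 9.7 and 28.2 CPM (log2FC 1.73 ± 0.31, adjusted p = 4.6e-06). The gelatinase Mmp9 had a log2FC of 1.24 ± 0.19 in airway (adjusted p = 3.3e-07), where 8 of 10 HDM libraries exceeded the PBS range, and of 2.40 ± 0.22 in parenchyma (adjusted p = 6.0e-13), with all 10.

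The other gelatinase, Mmp2, and the stromelysin Mmp3 did not follow. Mmp2 read 43, 82 and 178.4 CPM in PBS airway and 59.3, 79.4 and 154.6 in HDM airway, with wide overlap (log2FC -0.17, adjusted p = 0.38). In parenchyma Mmp2 rose 1.52-fold (log2FC 0.60 ± 0.18, adjusted p = 0.0024). Mmp3 had a log2FC of -0.30 in airway (adjusted p = 0.15) and of 0.43 in parenchyma (adjusted p = 0.084). The parenchyma value of Mmp3 passed the threshold with edgeR, with DESeq2, with DESeq2 size factors, under both other filters and on leaving out each of 12 libraries in turn, at 0.51 to 0.64. Counted by separation, 6 of 10 members had no overlap between PBS and HDM libraries in each tissue (4 above and 2 below in airway, 6 above in parenchyma), against 21.6% of genes in airway and 39.3% in parenchyma.

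**Figure D1:**
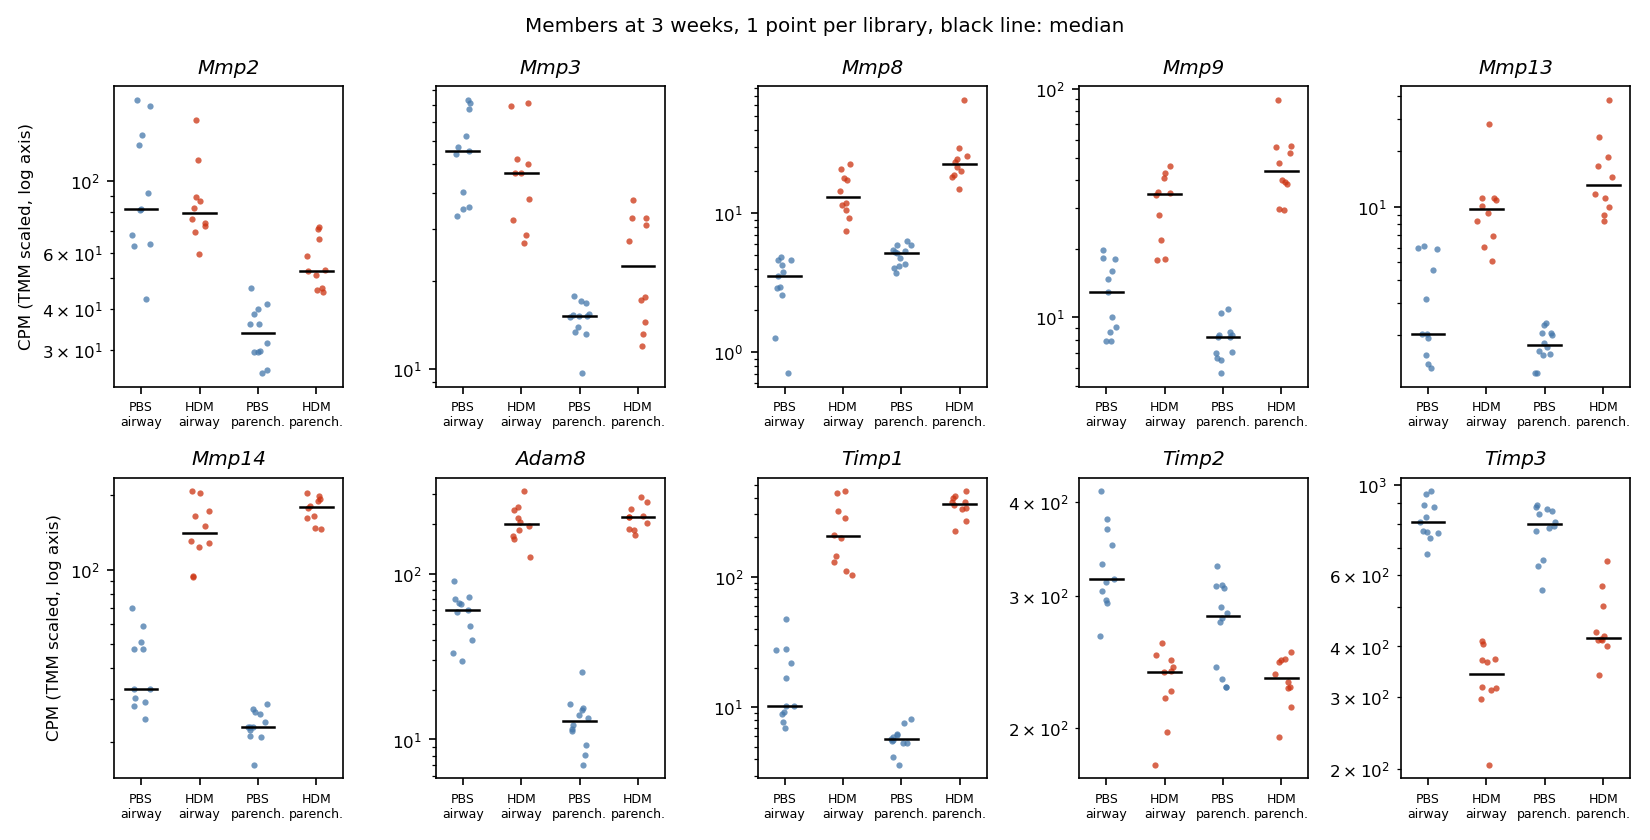
CPM on a log axis for each of the 10 members in the 43 libraries at 3 weeks (blue PBS, red HDM, 1 point per library, black line the median). Timp1 in parenchyma moves from a median of 5.7 to 360 CPM, Timp3 in airway from 810 to 342 CPM, and the Mmp2 and Mmp3 clouds overlap in airway.

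Markers of neutrophils and macrophages moved with these rises. Of the neutrophil markers, 8 of 9 tested were called higher in each tissue, with a summed level of 576 to 1574 CPM in PBS airway, 1393 to 4258 in HDM airway, 341 to 609 in PBS parenchyma and 1326 to 3962 in HDM parenchyma. Of the macrophage markers, 8 of 10 were called higher in each tissue, with 425 to 838 and 1090 to 12995 CPM in airway and 513 to 1262 and 4647 to 26498 CPM in parenchyma. Mpo was at 3 counts or fewer in every PBS parenchyma library, and no macrophage marker was at that floor in any of the 4 groups. One macrophage marker was called lower in airway. Of the fibroblast markers 7 of 10 were called lower in airway, and 5 lower and 1 higher in parenchyma, and of the endothelial markers 6 and 7 of 8 were called lower. Cardiac muscle markers were called lower for 6 of 6 in airway. Of 6 tested eosinophil markers, 5 were called higher in airway and 4 in parenchyma, with summed levels of 15 to 29.7 and 42.3 to 132.2 CPM in PBS and HDM airway and 15.4 to 36.5 and 47.6 to 109.5 CPM in parenchyma. Epx was at 3 counts or fewer in every PBS library of both tissues. Alveolar type I markers were called lower for 3 of 6 in airway and 5 of 6 in parenchyma. The part of these shifts in the member values was not tested.

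The HDM effect differed between the tissues for 6 members, 5 with a larger rise in parenchyma and Timp3 with a larger fall in airway. As a direct test, the airway effect less the parenchyma effect was past an adjusted p of 0.05 for Mmp2, Mmp9, Mmp14, Adam8, Timp1 and Timp3, all with a negative sign, where 6.43% of genes were past it with that sign and 10.8% with the other. It was widest for Adam8 (log2 difference -2.16 ± 0.25, adjusted p = 1.0e-06) and Timp1 (-2.05 ± 0.43, adjusted p = 0.0014). Mmp9 followed at -1.16 (adjusted p = 0.0061), Mmp14 at -0.99 (adjusted p = 0.0015), Mmp2 at -0.77 (adjusted p = 0.029) and Timp3 at -0.46 (adjusted p = 0.027). Adam8, Timp1, Mmp9, Mmp14 and Mmp2 started lower in the PBS parenchyma. Mmp8, by contrast, had nearly equal effects (difference 0.06 ± 0.38, adjusted p = 0.94). Mmp13 and Mmp3 had differences of -1.17 and -0.73 that missed the threshold (adjusted p = 0.079 and 0.081). With edgeR and with DESeq2 both passed it. With code pairs as a block Mmp13 passed (-1.16, adjusted p = 0.045) and Mmp3 did not (-0.74, adjusted p = 0.053). Mmp13 also passed it without HDM airway replicate 9 (-1.41), and Mmp3 without HDM parenchyma replicate 1, HDM airway replicate 4 or HDM airway replicate 8 (-0.90 to -0.83).

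After 11 weeks of HDM in normal air, the same 6 members were called higher in both tissues and none was called lower. The shares over all genes were 10.6% higher and 8.54% lower in airway and 13% and 6.12% in parenchyma. Timp1 read 5.08, 7.38 and 24.1 CPM in PBS AIR airway and 18.4, 53.7 and 118.9 in HDM AIR airway, now with overlap (log2FC 2.64 ± 0.37, adjusted p = 3.3e-10). In parenchyma it read 1.61, 4.49 and 11.3 against 25.8, 75.9 and 198.1 CPM (log2FC 3.90 ± 0.45, adjusted p = 1.0e-13). Mmp14 again separated fully, with log2FC of 1.73 ± 0.11 in airway and 1.87 ± 0.11 in parenchyma (adjusted p = 2.6e-31 and 7.4e-34). Over all genes, 16.2% had no overlap in airway and 22.3% in parenchyma. Adam8 rose 2.22-fold in airway and 11.6-fold in parenchyma (adjusted p = 5.9e-08 and 9.5e-31). In parenchyma, Mmp2 and Mmp3 were past the adjusted p as well (log2FC 0.64 and 0.79, adjusted p = 2.7e-07 and 0.003), and Timp3 fell from 778, 1021 and 1296 to 316, 511 and 776 CPM (log2FC -0.93, adjusted p = 1.0e-11).

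Markers of several cell types moved in the same comparison. Neutrophil markers were called higher for 6 of 10 in airway and 7 of 10 in parenchyma, with summed levels of 426 to 1977 and 886 to 2176 CPM in PBS AIR and HDM AIR airway and 165.9 to 627 and 333 to 1430 CPM in parenchyma. Mpo was at 3 counts or fewer in every PBS AIR parenchyma library. Macrophage markers were called higher for 7 of 10 in airway (504 to 888 against 1538 to 9915 CPM) and 6 of 10 in parenchyma (851 to 1469 against 2130 to 15443 CPM). In airway 7 of 8 smooth muscle and 6 of 6 cardiac muscle markers were called lower, and endothelial markers were called lower for 2 of 8 in airway and 8 of 8 in parenchyma. Also lower in airway were 5 of 10 fibroblast, 5 of 8 cartilage and 3 of 5 mesothelium markers. In parenchyma 3 of 8 smooth muscle markers were called higher and 0 lower. Of 10 fibroblast markers there, 1 was called higher and 2 lower. The part of these shifts in the member values was not tested.

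The 11 week effect of HDM was then set against that at 3 weeks. In parenchyma the difference was past an adjusted p of 0.05 for Timp1 (-2.0 ± 0.61, adjusted p = 0.0044) and Mmp14 (-1.05 ± 0.17, adjusted p = 1.4e-07), where 20.9% of genes were past it in that direction. With edgeR and with DESeq2 4 members passed. In airway Adam8 had a smaller rise (-0.72, adjusted p = 0.028) and Timp2 and Timp3 smaller falls (0.27 and 0.44, adjusted p = 0.017 and 0.034), beside 13.9% of genes lower and 14.5% higher. Week, duration of exposure and the HDM schedule, which went from 5 days per week to 3 times per week from week 4, cannot be told apart.

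Smoke alone raised fewer members. In airway 3 members were called higher, Mmp8, Mmp13 and Timp1, against 1.73% of genes called higher and 2.78% called in all, and in parenchyma 4, with Adam8 in addition, against 4.21%. None was called lower in either tissue, where 1.06% and 1.12% of genes were. Adam8 in parenchyma had the clearest separation, from 9.27, 12.1 and 19.8 CPM in PBS AIR to 27.7, 47.7 and 58.7 in PBS CS (log2FC 1.79 ± 0.23, adjusted p = 3.1e-11). In that comparison 8.53% of genes had no overlap. Mmp8 had log2FC of 1.46 ± 0.41 in airway and 1.29 ± 0.32 in parenchyma, Mmp13 of 1.54 ± 0.33 and 1.24 ± 0.36, and Timp1 of 1.19 ± 0.39 and 1.68 ± 0.48. Their adjusted p lay between 2.3e-04 and 0.024. Where a CPM of at least 10 was required, Mmp13 was not tested and Mmp8 in airway missed the threshold (log2FC 1.43, adjusted p = 0.1). Timp3 fell in both tissues without reaching the fold limit (log2FC -0.49 and -0.56, adjusted p = 0.0017 and 9.4e-05). Neutrophil markers were called higher for 6 of 10 in each tissue and macrophage markers for 4 of 10 in airway and 7 of 10 in parenchyma. The summed macrophage level was 851 to 1469 CPM in PBS AIR parenchyma and 2428 to 3705 in PBS CS parenchyma, and its part was not tested.

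HDM plus smoke gave 5 members called higher in airway (Mmp8, Mmp9, Mmp14, Adam8 and Timp1) and 6 in parenchyma, Mmp13 in addition, against 7.33% and 8.67% of genes, and 0 called lower against 5.82% and 2.47%. For Mmp8 the combined exposure gave 12.2, 13.5 and 24.6 CPM in airway against 0.855, 1.91 and 7.59 under PBS AIR (log2FC 2.79 ± 0.38, adjusted p = 1.6e-10). Mmp9 in airway went from 4.39, 7.42 and 17.1 to 19.4, 31.7 and 54.7 CPM (log2FC 1.98 ± 0.29, adjusted p = 2.3e-09). Both were without overlap, as were 9.06% of genes in airway. Timp1 stood at 10.5, 40.2 and 66.5 CPM in airway and 12.7, 25.2 and 47 in parenchyma, below its HDM AIR medians of 53.7 and 75.9. Timp3 fell by 0.75 and 0.69 on the log2 scale (adjusted p = 4.2e-08 and 5.0e-07). Neutrophil markers were called higher for 7 of 10 in each tissue and lower for 1 in parenchyma, macrophage markers higher for 8 of 10 in each tissue and cardiac muscle markers lower for 6 of 6 in airway. The summed macrophage level in HDM CS was 2205 to 6286 CPM in airway and 2786 to 7029 in parenchyma, and the part of these cells was not tested.

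**Figure D2:**
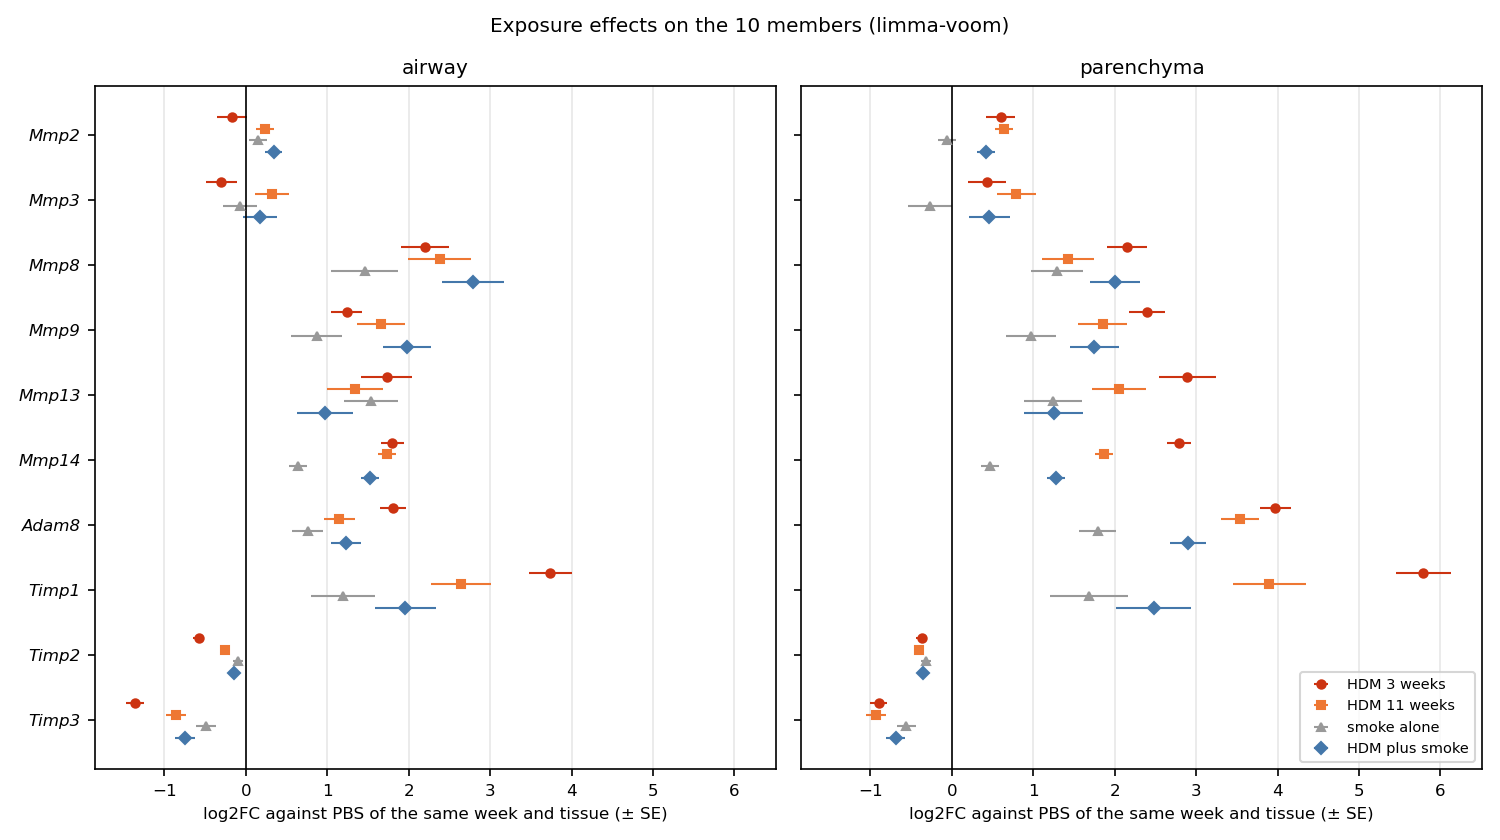
Log2FC with its SE (limma-voom) of the 10 members against PBS of the same week and tissue, for HDM at 3 weeks, HDM at 11 weeks, smoke alone and HDM plus smoke (same x axis in both panels). Timp1 reaches 5.79 in parenchyma at 3 weeks, Timp3 is below 0 in all 8 comparisons, and Mmp2 and Mmp3 stay between -0.30 and 0.79.

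The combined exposure was below the sum of the separate effects for some of the members that rose. The interaction of HDM and smoke was past an adjusted p of 0.05 in parenchyma for Mmp9 (-1.07 ± 0.39), Mmp13 (-2.04 ± 0.45), Mmp14 (-1.06 ± 0.15), Adam8 (-2.43 ± 0.30) and Timp1 (-3.11 ± 0.57), and with a positive sign for Timp2 (0.39 ± 0.09) and Timp3 (0.80 ± 0.17). Their adjusted p ran from 1.1e-11 for Adam8 to 0.024 for Mmp9, in a tissue where 18.7% of genes were past the threshold with a negative and 17.3% with a positive sign. In airway Mmp13 (-1.92 ± 0.44, adjusted p = 6.6e-04), Mmp14 (-0.85 ± 0.15, adjusted p = 1.4e-05), Timp1 (-1.87 ± 0.49, adjusted p = 0.003) and Timp3 (0.61 ± 0.17, adjusted p = 0.0048) were past it, against 11.4% of genes with a negative and 7.72% with a positive sign. A sum of log2 values is a product of folds, so a value under 0 means a rise smaller than that product. Mmp8 did not pass in either tissue (-1.05 ± 0.49 in airway, adjusted p = 0.12, and -0.72 ± 0.40 in parenchyma, adjusted p = 0.16). In airway Mmp9 (-0.55, adjusted p = 0.34) and Adam8 (-0.68, adjusted p = 0.065) did not pass either. Mmp2 and Mmp3 had interactions from -0.17 to -0.04 that did not pass.

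**Figure D3:**
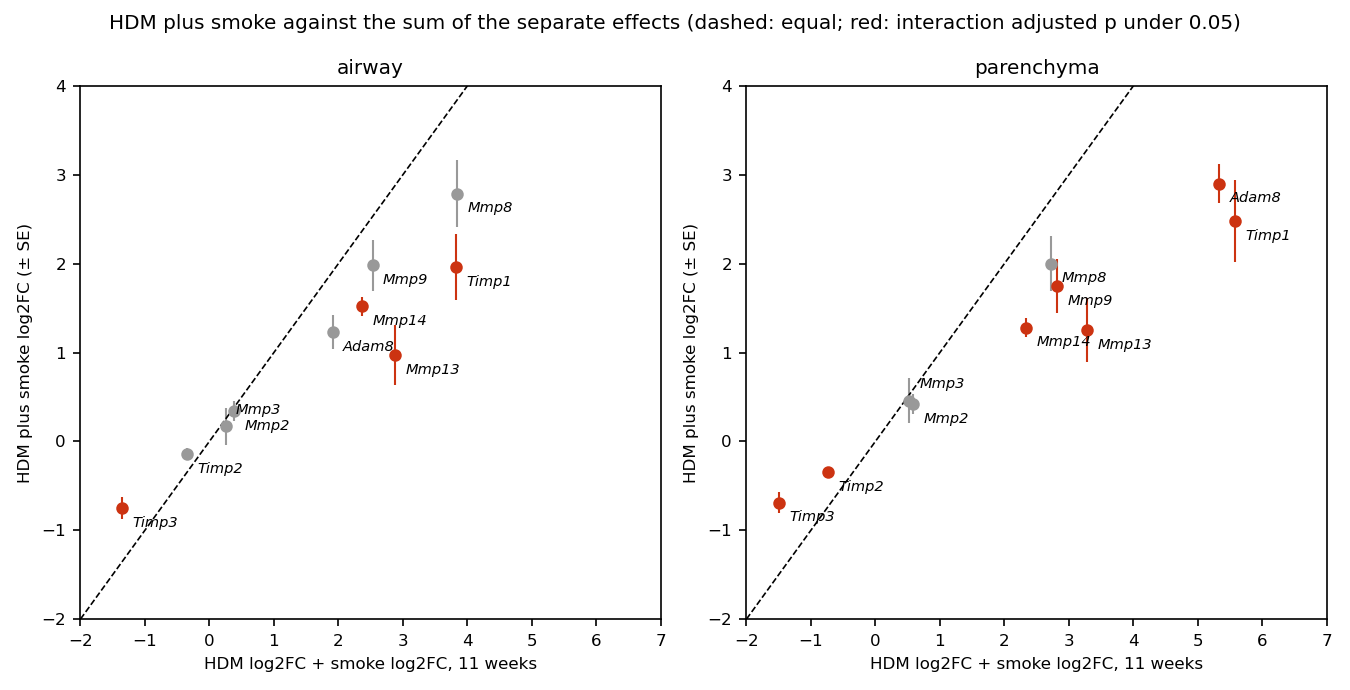
Log2FC of HDM plus smoke (y axis, with SE) against the sum of the log2FC of HDM and of smoke at 11 weeks (x axis), 1 point per member, dashed line of equality, red where the interaction is past an adjusted p of 0.05. Timp1 in parenchyma has an interaction of -3.11 and Adam8 of -2.43, both below the line, while Mmp2 and Mmp3 lie near it.

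Adding smoke to HDM lowered members in parenchyma. Timp1 was called lower (log2FC -1.43 ± 0.31, adjusted p = 1.3e-04), against 3.46% of genes called lower and 0.899% higher. Mmp13 (-0.80, adjusted p = 0.021), Adam8 (-0.64, adjusted p = 0.0074) and Mmp14 (-0.58, adjusted p = 1.1e-05) fell by less than the fold limit. In airway 0 of 10 were past an adjusted p of 0.05 by limma-voom, where 2954 of the 18250 genes tested were past it. With the fold limit in addition, 2.64% of genes were called there and 1.97% were called lower. Timp1 in airway had a log2FC of -0.68 ± 0.30 (adjusted p = 0.11). In parenchyma, 2 of 10 neutrophil and 1 of 6 tested eosinophil markers were called lower on adding smoke, and of the macrophage markers 1 of 10 was called higher and 0 lower, with medians of the summed level of 3753 CPM in HDM AIR and 4772 in HDM CS. Their part was not tested. Conversely, HDM added to smoke raised Mmp8 and Mmp9 in airway (log2FC 1.33 and 1.10), where 6.4% of genes were called, 3.9% higher and 2.5% lower, and Adam8 in parenchyma (1.12), where 2.71% were called higher. Mmp14 had no overlap between PBS CS and HDM CS in either tissue (log2FC 0.88 and 0.81, adjusted p = 1.2e-11 and 1.4e-09). This held for 3.23% of genes in airway and 2.58% in parenchyma. Mmp13 did not pass in either tissue, at -0.57 and 0.01.

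Dexamethasone lowered some of the HDM-raised members. In HDM AIR parenchyma 3 members were called lower, against 5.4% of genes called lower and 0.619% higher. Mmp13 went from 3.8, 6.91 and 16.2 to 0.727, 1.39 and 3.76 CPM, with no overlap (log2FC -2.17 ± 0.35, adjusted p = 1.7e-07). In this comparison 2.42% of genes had no overlap. Timp1 went from 25.8, 75.9 and 198.1 to 4.57, 16 and 31.1 CPM (log2FC -2.42 ± 0.35, adjusted p = 9.7e-09), and Adam8 from 69.3, 158.9 and 243 to 44.2, 66.2 and 95.7 CPM (log2FC -1.14 ± 0.19, adjusted p = 5.5e-07). Mmp14 fell by only 0.30 on the log2 scale (adjusted p = 0.03), Mmp8 had a log2FC of 0.11 (adjusted p = 0.81) and Mmp9 of -0.60 (adjusted p = 0.062, or 0.038 with code pairs as a block). Without the library rich in Gm42418, 3 members were again called. In HDM AIR airway Timp1 alone was called lower, from 18.4, 53.7 and 118.9 to 4.9, 16.6 and 27.3 CPM (log2FC -1.86 ± 0.33, adjusted p = 2.5e-06), against 5.07% of genes called lower and 5.86% in all. No overlap was found for 3.01% of genes there and for none of the 10 members. Mmp13 (-0.84, adjusted p = 0.034), Mmp3 (-0.77, adjusted p = 0.0039) and Adam8 (-0.64, adjusted p = 0.0062) fell by less. Timp3 rose slightly in both tissues (0.37 and 0.30, adjusted p = 0.0089 and 0.036).

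Leukocyte markers were counted in the same comparisons, where 5.07% of genes were called lower in airway and 5.4% in parenchyma. Their median log2FC in airway and parenchyma was -0.59 and -0.53 for neutrophils and -0.90 and -0.99 for eosinophils. For macrophages it was -0.19 and -0.15. Of the neutrophil markers, 2 of 10 were called lower in parenchyma and 1 of 10 in airway, with a summed level of 333 to 1430 CPM in HDM AIR and 246 to 874 in HDM AIR DEX parenchyma. No macrophage marker was called in either tissue, with 2130 to 15443 and 3271 to 8516 CPM in parenchyma. Of the eosinophil markers, 2 of 6 tested were called lower in each tissue, with 25.9 to 63.6 and 15 to 35.1 CPM in parenchyma, and Epx was at 3 counts or fewer in every HDM AIR DEX library there. The part of these cells was not tested.

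Where smoke had been added to HDM, dexamethasone called 0 of 10 members by limma-voom in either tissue, against 2.04% of genes in airway and 2.03% in parenchyma. Whether the dexamethasone effect differed between HDM CS and HDM AIR mice was not tested. At an adjusted p alone, Adam8 was lower (-0.59, adjusted p = 0.035) and Timp3 higher (0.44, adjusted p = 0.0065) in airway. Timp1 read 10.5, 40.2 and 66.5 CPM in HDM CS airway and 14.9, 27.5 and 88.4 in HDM CS DEX airway (log2FC -0.14 ± 0.30, adjusted p = 0.86). In parenchyma it read 12.7, 25.2 and 47 against 23.6, 42.4 and 127.2 (log2FC 0.69 ± 0.31, adjusted p = 0.18), so its groups overlapped in both tissues.

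In mice without HDM, 0 of 10 members were called with dexamethasone in either tissue by limma-voom, in PBS AIR or in PBS CS. In airway 2.41% of genes were called in PBS AIR (0.559% higher and 1.85% lower) and 2.47% in PBS CS (2.29% lower), and in parenchyma 3.16% and 2.75%. EdgeR and DESeq2 each called 1 member in PBS CS airway and 2 in PBS CS parenchyma. At an adjusted p alone, Mmp8 was higher with dexamethasone in PBS CS airway (1.00 after rounding, just under the fold limit, adjusted p = 0.016), PBS CS parenchyma (0.99, adjusted p = 0.0014) and PBS AIR parenchyma (0.88, adjusted p = 0.042). Timp3 was higher in PBS CS mice of both tissues (0.66 and 0.69, adjusted p = 2.5e-05 and 8.0e-06), from 513, 601 and 670 to 602, 993 and 1225 CPM in airway. Mmp14 rose 1.47-fold in PBS AIR airway with no overlap between the groups (adjusted p = 5.4e-05), where 0.674% of genes had none. Mmp2 was higher in PBS AIR airway (0.35, adjusted p = 0.023), and Timp2 fell by 0.22 in PBS AIR parenchyma (adjusted p = 0.0063).

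**Figure D4:**
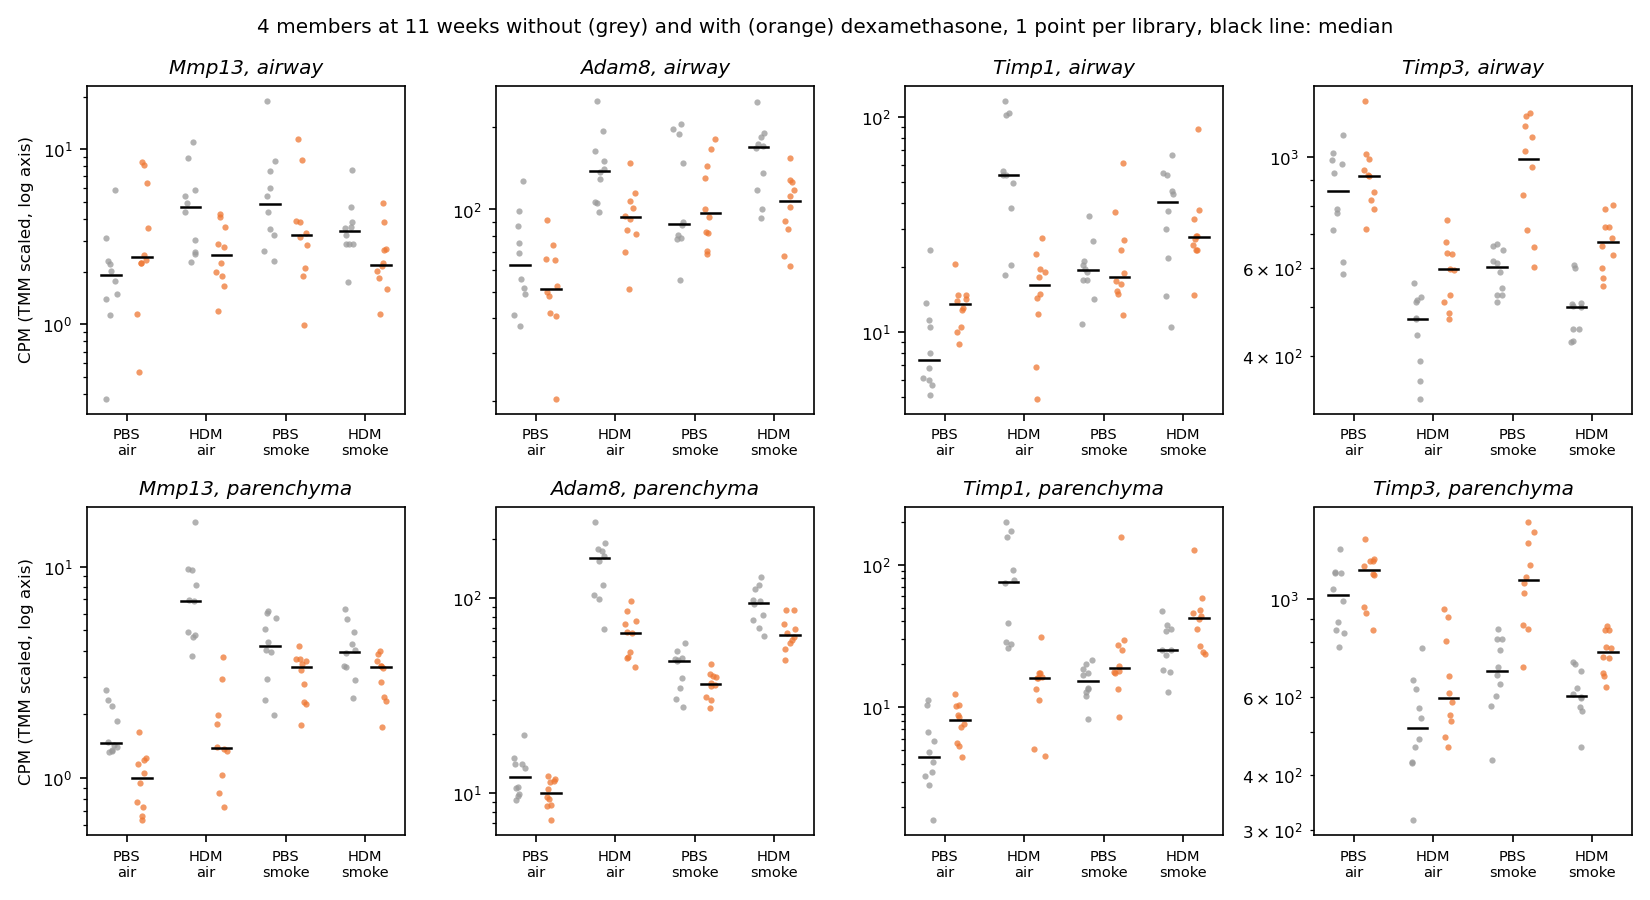
CPM on a log axis of Mmp13, Adam8, Timp1 and Timp3 in the 160 libraries at 11 weeks without (grey) and with (orange) dexamethasone, by exposure and tissue, black line the median. In HDM AIR parenchyma the Timp1 median goes from 75.9 to 16 CPM and the Mmp13 median from 6.91 to 1.39 CPM.

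The dexamethasone effect itself differed between HDM AIR and PBS AIR mice. For Timp1 the difference was -2.50 ± 0.53 in airway (adjusted p = 6.4e-04) and -3.16 ± 0.63 in parenchyma (adjusted p = 2.6e-04). Mmp3 was past the threshold in both tissues (-1.24 and -1.10, adjusted p = 0.005 and 0.021), Mmp13 and Mmp14 in airway (-1.54 and -0.57, adjusted p = 0.038 and 0.013), and Mmp9 and Timp2 in parenchyma (-1.35 and 0.25, adjusted p = 0.017 and 0.043). Of all genes 3.52% were lower and 1.11% higher by this test in airway, and 6.38% and 6.02% in parenchyma. Between HDM CS and PBS AIR mice 0 of 10 members passed this limma-voom test in either tissue, against 0.373% and 1.23% of genes. The Timp2 difference in parenchyma was lost without the library rich in Gm42418 (adjusted p = 0.057). Both tests share the PBS AIR and PBS AIR DEX libraries. The differences also take in changes in PBS AIR mice. In airway the Mmp14 mean per kilobase of exon was 6.46 CPM in PBS AIR and 9.3 in PBS AIR DEX. In HDM AIR and HDM AIR DEX it was 21.1 and 21. Mmp3 went from 19.8 to 27.7 in PBS AIR airway and from 24.5 to 14.4 in HDM AIR airway. Mmp13 went from 0.813 to 1.41 and from 1.91 to 0.994, and Timp1 from 11 to 15.1 and from 69.2 to 18.

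Across all 20 groups Timp1 had the widest range of means, 5.42 to 351 CPM or 64.7-fold, from PBS AIR parenchyma to HDM parenchyma at 3 weeks. Adam8 followed with 21.8-fold (10.1 to 221 CPM), Mmp13 with 16-fold, Mmp8 with 10.5-fold, Mmp14 with 7.51-fold and Mmp9 with 5.98-fold. Mmp3, Timp3, Mmp2 and Timp2 had 3.94-, 3.33-, 3.1- and 1.86-fold ranges. HDM parenchyma at 3 weeks held the highest mean of Mmp9, Mmp13, Mmp14, Adam8 and Timp1, and HDM airway at 3 weeks the lowest of Timp2 and Timp3. Mmp8 differed from these, with its highest mean (29.6 ± 16.1 CPM, SD, n = 10) in PBS CS DEX parenchyma, where replicate 2 stood at 66.5 and the next library at 41 CPM. By kilobase of exon, the median share of Timp1 among the 3 inhibitors was 32.6% in HDM AIR airway and 35.5% in HDM AIR parenchyma, and dexamethasone groups of the same exposure stood at 10.7% and 10.3%. In HDM CS mice it was 24.1% and 15.1% without and 15.7% and 21.9% with dexamethasone.

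**Figure D5:**
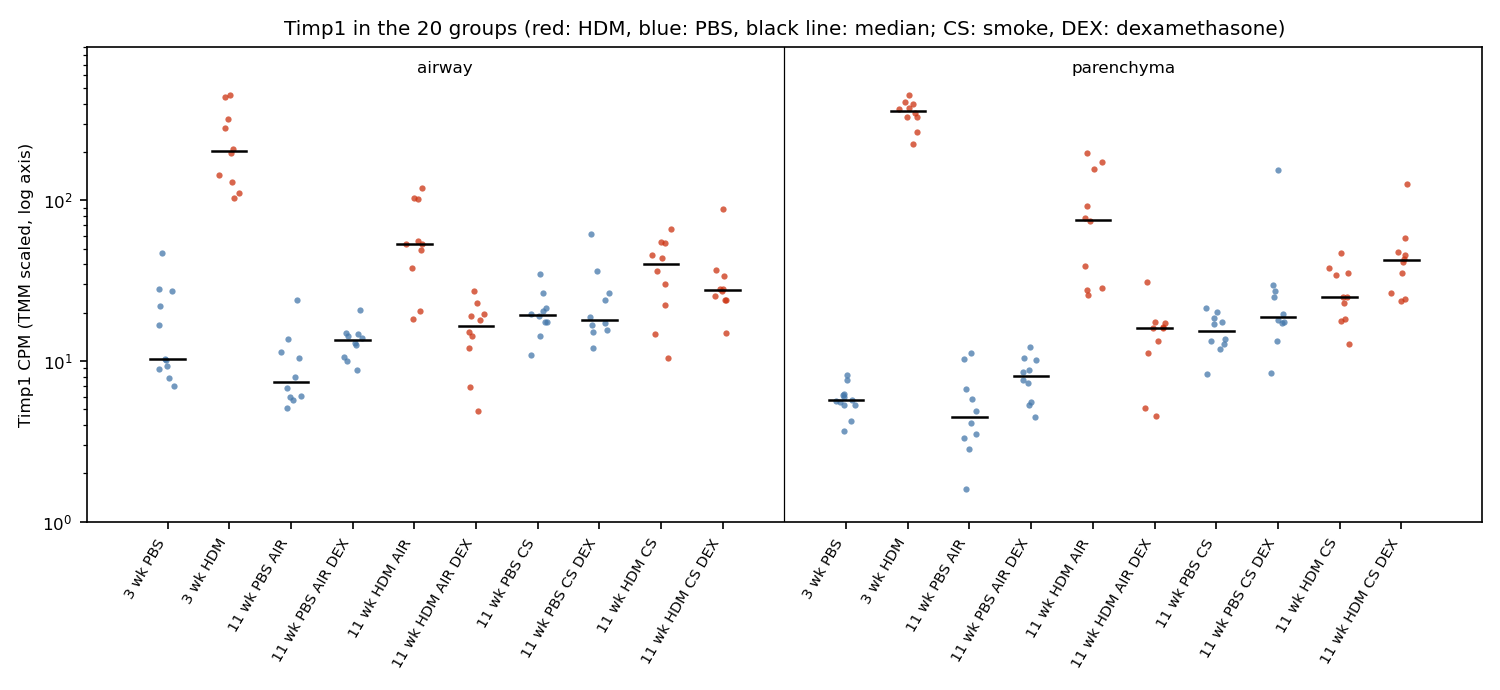
Timp1 CPM on a log axis in each library by group (red HDM, blue PBS, black line the median, airway left and parenchyma right). The HDM groups at 3 weeks stand at medians of 203.9 and 360 CPM, and 1 PBS CS DEX parenchyma library stands at 155.5 CPM.

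Over the 20 group means of log2 CPM, several of the rising members had like patterns, and Timp2 and Timp3 tended the opposite way. Pearson's r was 0.89 for Mmp14 with Mmp9, 0.89 for Timp1 with Mmp13, 0.84 for Timp1 with Mmp9, 0.83 for Adam8 with Mmp14 and 0.76 for Mmp3 with Mmp2, while Timp3 had -0.76 with Timp1 and -0.78 with Adam8 but 0.76 with Timp2. Mmp8 was less like some of the others, at 0.37 with Adam8 and 0.41 with Mmp13 but 0.59 with Timp1, 0.68 with Mmp14 and 0.82 with Mmp9. Among the rising members Timp2 ranged from -0.76 with Timp1 to -0.32 with Mmp8, and Timp3 had -0.34 with Mmp8. The genes most like each member, among 15106 genes searched over the same 20 means, were Slfn10-ps and Gpr176 for Mmp14, Coro2a and Mgat4a for Adam8, Psmd14 and Kpna3 for Timp1, Trappc1 and Gsdme for Mmp9, and Ryk and Pls3 for Timp3 (r from 0.95 to 0.98). For Mmp8 they were Sftpd and Serinc2, for Mmp13 Dlgap5 and Ccl22, for Mmp2 Reln and Tmem45b, for Mmp3 Xk and Sulf1, and for Timp2 Acvr1 and Fgf10 (r from 0.92 to 0.95). The points share tissue and exposure and were picked as the highest of many, so these values are a description.

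Beyond the 10 members, further lists of proteases and inhibitors were counted, also chosen with earlier results of these data known. Most cathepsins, the lysosomal proteases, rose. With HDM at 3 weeks 7 of 10 were called higher in airway and 8 of 10 in parenchyma, and 8 of 10 in each tissue with HDM plus smoke, 0 lower throughout. Over all genes, 12.1% and 14.5% were called higher in these tissues at 3 weeks, 11.8% and 15.1% lower, and 7.33% and 8.67% higher with HDM plus smoke. Ctss, of antigen-presenting cells, rose from a mean of 218 to 2006 CPM in airway at 3 weeks, and Ctsk, a collagen-degrading cathepsin, from 80.2 to 626 CPM in parenchyma. Of the other matrix metalloproteinases, 4 of 10 tested were called higher in each tissue at 3 weeks, and 1 lower in airway and 2 in parenchyma. Mmp12, the macrophage elastase, led them at 48.2 to 1633 CPM in airway and 47.9 to 2834 CPM in parenchyma (log2FC 4.87 and 5.74), and had log2FC of 5.23 and 4.53 with HDM plus smoke. Mmp25, a membrane-type enzyme of leukocytes, was lower in level and rose from a mean of 1.51 to 9.63 CPM and from 0.732 to 11.9 CPM at 3 weeks (log2FC 2.75 and 3.89). Other ADAM and ADAMTS proteases went both ways, with 5 of 18 called higher and 3 lower in airway and 5 higher and 4 lower in parenchyma, where the aggrecanase Adamts4 rose (log2FC 2.22 and 3.15) and Adamts5 fell (-1.55 and -1.64). Of the serine protease and plasminogen activation genes, 2 of 10 tested were called higher in each tissue, Plaur (the urokinase receptor) and Furin, and 1 and 2 lower, too few for a reading beside the shares of all genes above.

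Among other protease inhibitors, more were called higher than lower with HDM. At 3 weeks 8 of 18 tested were called higher and 1 lower in airway, and 11 higher and 1 lower in parenchyma, beside the shares of all genes above. The largest called change in both tissues was that of A2m (alpha-2-macroglobulin), at low levels, from a mean of 0.453 to 5.34 CPM in airway and from 0.0353 to 2.59 CPM in parenchyma. Wfdc17 rose from 19.9 to 340 CPM in parenchyma (log2FC 3.97). Slpi, the secretory leukocyte protease inhibitor, varied widely in PBS airway, at a mean of 102.3 CPM (SD 142.4, n = 11). Under HDM its airway mean was 637 CPM (SD 268, n = 10, log2FC 3.21). With HDM plus smoke, Slpi in airway went from 23.6 to 904 CPM (log2FC 5.15). Spink5, a serine protease inhibitor of epithelia, was also called higher with HDM plus smoke, from means of 0.0529 to 0.802 CPM in airway and 0.0265 to 1.06 CPM in parenchyma. Reck, a membrane-bound inhibitor of metalloproteinases, was the one called lower (log2FC -1.96 in airway and -2.35 in parenchyma), from 41.3 to 11.3 and from 51.3 to 11.0 CPM, in the direction of Timp2 and Timp3. It was also called lower with HDM plus smoke in parenchyma, at -1.13.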

How the data were processed

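RNA from dissected airway and parenchyma was sequenced by the authors as 100 bp single reads. Per the labels and methods, STAR 2.5.1b, RSEM 1.2.31 and Kallisto 0.44.0 were used with mm10. The authors deposited estimated counts per gene, unscaled. Which quantifier made them, and whether strand was used, is not given in the sources used here. Of non-zero values 20.3% were not whole (tolerance 1e-06), and all were rounded. Symbols, exon lengths and coordinates came from GENCODE M21, matched without version for 42462 of 43346 identifiers.

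Normalization was by TMM (edgeR 4.0.16) and testing by voom with 1 mean per group (limma 3.58.1, R 4.3.3), with Benjamini-Hochberg adjustment over all genes. A gene was kept if 9 or more libraries reached the CPM that 10 counts make in a library of median depth. The 43 libraries at 3 weeks (17377 genes) and the 160 at 11 weeks (18250 genes) were fitted separately, and all together (18528 genes) for the comparison of times. Differences between effects were judged on the adjusted p alone. Printed CPM use TMM factors over all libraries. A marker was at the floor with 3 counts or fewer in every library of a group. Total counts ranged from 13003087 to 40240680, which limits the precision of low genes. The code was tested on simulated data.

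Genes beyond the members were taken from a rule, of which the text names part: the called genes with the largest changes in 5 protease and inhibitor lists at 3 weeks and with HDM plus smoke, and the 2 genes most like each member by Pearson's r (log2 CPM, prior count 2). Members and lists were chosen with earlier results of these data known. As alternatives, the edgeR quasi-likelihood test, DESeq2 1.42.0, DESeq2 size factors, a stricter and no filter, a single fit of all libraries and the omission of each library at 3 weeks were run. Omitting the library rich in Gm42418, and a fit with pairs of consecutive library codes as a block (limma duplicateCorrelation), were chosen after seeing the data. Protein sequences and promoters of Mmp2 and Mmp9 were not used here.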

Additional observations from a re-analysis of the deposited data

Results flagged for a closer look

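Of 180 sets of 1 member in 1 group of 10 libraries, 24 held a highest or lowest library far from the nearest other by Dixon's criterion. Chance alone meets it in about 1 of 20 sets where values are independent and normally distributed. CPM need not be so distributed, and some of the values below share a library or a code pair. The number found can therefore not be read against that rate. Mmp8 had 6 of these, all high. They were 65.7 CPM in HDM parenchyma at 3 weeks (replicate 4, next 29.7), 66.5 and 51.2 CPM in PBS CS DEX parenchyma and airway (both replicate 2, next 41 and 29), 30.9 and 20 CPM in HDM AIR DEX parenchyma and airway (both replicate 8, next 21.4 and 12.8), and 12.2 CPM in PBS AIR parenchyma (replicate 9). The same HDM parenchyma library held the high Mmp9 value, 89.7 CPM against a next of 56.5.

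Timp1 had 7, all high. In PBS CS DEX, replicate 6 stood at 155.5 CPM in parenchyma (next 29.8) and at 61.4 CPM in airway (next 36.1), and in HDM CS DEX replicate 8 stood at 127.2 (next 58.7) and 88.4 CPM (next 37.1). The others were 24.1 CPM in PBS AIR airway, 20.8 in PBS AIR DEX airway and 31.1 in HDM AIR DEX parenchyma. Replicate 8 of HDM CS DEX parenchyma was also high for Mmp14, at 154.3 CPM.

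Mmp13 had 6, at 38 and 28.2 CPM in HDM parenchyma and airway at 3 weeks (both replicate 9), 18.9 in PBS CS airway, 16.2 in HDM AIR parenchyma, 7.61 in HDM CS airway and 5.88 in PBS AIR airway. The last 3 were the low Mmp2 of PBS CS parenchyma replicate 9 (34.2 CPM), Timp2 in HDM AIR DEX parenchyma (353 CPM) and Timp3 in PBS AIR DEX airway (1297 CPM). Where the same replicate number is high in both tissues, the labels do not say whether the libraries come from one mouse.

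Effects that differed between groups by a limma-voom test of the difference were 30. Such differences were common over all genes. The share past the same threshold was 17.3% for HDM at 3 weeks in airway less parenchyma. It was 28.4% in airway and 42.4% in parenchyma for 11 less 3 weeks, and 19.1% and 36% for HDM by smoke. For dexamethasone in HDM AIR less PBS AIR it was 4.62% and 12.4%. For HDM at 3 weeks, airway less parenchyma gave -2.16 for Adam8, -2.05 for Timp1, -1.16 for Mmp9, -0.99 for Mmp14, -0.77 for Mmp2 and -0.46 for Timp3. The HDM effect at 11 weeks less that at 3 weeks was -2.0 for Timp1 and -1.05 for Mmp14 in parenchyma, and -0.72 for Adam8, 0.27 for Timp2 and 0.44 for Timp3 in airway. The interaction of HDM and smoke was -1.92 for Mmp13, -0.85 for Mmp14, -1.87 for Timp1 and 0.61 for Timp3 in airway. In parenchyma it was -1.07 for Mmp9, -2.04 for Mmp13, -1.06 for Mmp14, -2.43 for Adam8, -3.11 for Timp1, 0.39 for Timp2 and 0.80 for Timp3. The dexamethasone effect in HDM AIR less that in PBS AIR was -1.24 for Mmp3, -1.54 for Mmp13, -0.57 for Mmp14 and -2.50 for Timp1 in airway, and -1.10 for Mmp3, -1.35 for Mmp9, -3.16 for Timp1 and 0.25 for Timp2 in parenchyma.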

How the results depend on the processing

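Of 2424 recomputations of the member values past the adjusted p, 2393 kept their sign and stayed past it, 31 missed it and 0 changed sign, while 74 recomputations of other member values were newly past it. With dexamethasone in PBS smoke, where limma-voom called 0 members, edgeR and DESeq2 each called 1 in airway and 2 in parenchyma, and DESeq2 size factors and the single fit of all libraries each called 1 in parenchyma. With smoke alone in airway, 1 member instead of 3 was called where a CPM of at least 10 was required, a filter that leaves Mmp13 untested. For the HDM effect at 11 less 3 weeks in parenchyma, edgeR and DESeq2 each had 4 members past the threshold instead of 2. The cause was not tested. Adding genes by dropping the filter shifted the median of all genes by 0.12 (log2) for HDM at 3 weeks in parenchyma. Without replicate 2 of HDM AIR DEX parenchyma, each count of members called was within 1.5 times the reported one. Without it, Mmp8 with HDM added to smoke in parenchyma (0.71, adjusted p = 0.051) and the Timp2 difference in dexamethasone effect in parenchyma (0.25, adjusted p = 0.057) missed the threshold, and Timp1 with HDM added to smoke in airway reached it (0.78, adjusted p = 0.05). Mmp8 and Mmp13 were at a few CPM in PBS mice, where counting error is a larger part of the value. Taking pairs of consecutive library codes as a replicate block, a choice made after seeing the data, kept every member value past the adjusted p past it. Over genes, the deviations of both libraries of a pair from their group means had r of -0.19 to 0.61 (median 0.26, over 0.1 in 88 pairs), and the fits estimated a correlation of 0.13 at 3 weeks, 0.35 at 11 weeks and 0.30 over all libraries. Newly past the threshold with the block were Mmp13 for the HDM effect in airway less parenchyma (-1.16), Timp1 and Timp3 for airway less parenchyma in PBS AIR (0.87 and -0.25), Mmp3 with dexamethasone in PBS AIR parenchyma (0.61, adjusted p = 0.048), Mmp9 with dexamethasone in HDM AIR parenchyma (-0.60, adjusted p = 0.038), Timp1 with HDM added to smoke in airway (0.77, adjusted p = 0.035) and Timp1 for the HDM effect at 11 less 3 weeks in airway (-1.16, adjusted p = 0.044).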
